A study of Mus musculus with 2 samples.

Results

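The subunits of the mitochondrial respiratory chain and ATP synthase were followed through knee cartilage cells of mice after a sham operation and after DMM, in which the medial meniscus is made unstable by surgery and osteoarthritis follows. Members were chosen by symbol: all genes whose names start with Ndufa, Ndufb, Ndufc, Ndufs, Ndufv, Uqcr, Cox4 to Cox8 or Atp5, the 4 Sdh genes, Cyc1 and Cycs, and the mitochondrially encoded mt-Nd, mt-Co, mt-Atp and mt-Cytb genes. Ndufa4l2, the Ndufaf assembly factors and symbols ending in -ps were left out. This gave 99 of 32285 measured features, 86 from the nuclear and 13 from the mitochondrial genome. Both groups were wild type (WT), and each was 1 single-cell library pooled from 3 mice, with no age given in the labels. The sort kept live knee joint cartilage cells, Calcein AM positive and DAPI negative, without the blood markers CD45 and Ter119 and the endothelial marker CD31. The labels call the cells superficial cells. Since each group was a single pool, the libraries were compared without a test, and no p-value is given. Brackets hold exact 95% intervals, which account for the counting of molecules alone and say nothing of the spread between mice or preparations.

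The respiratory chain of the inner mitochondrial membrane passes electrons from NADH through complex I, or from succinate through complex II, to ubiquinone, then through complex III and cytochrome c to oxygen at complex IV. The protons pumped on the way drive ATP synthase, also called complex V. Complex II is built from nuclear genes alone, whereas the other complexes combine nuclear subunits, made in the cytosol and imported, with a few core subunits encoded and translated in the mitochondrion itself. Articular chondrocytes live in a tissue without vessels and make much of their ATP by glycolysis. By complex, the members were 36 nuclear and 7 mitochondrial genes of complex I, 4 nuclear genes of complex II, 9 and 1 of complex III, 19 and 3 of complex IV, 17 and 2 of ATP synthase, and Cycs. Ndufa4, named for complex I, is a subunit of complex IV and was counted there.

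Many nuclear subunit genes share promoter elements for the factors NRF1, ERR, ETS and YY1, and the promoters of 4 members are shown because they carry such an element and differ in how their gene behaved between the libraries. RefSeq entries on GRCm38.p6, from 250 bases before the gene start to 50 after it, matched 70 of the 86 nuclear members. Matching was by symbol or, where the symbol was absent, by a synonym. Each line gives the 250 bases before the start, 5′ to 3′ on the minus strand that the gene is read from, with the element in capitals. The palindromic NRF1 core CGCATGCG stands in those of Cycs, cytochrome c (chr6:50566570-50566819), Cox6a1, a nuclear subunit of complex IV (chr5:115348959-115349208), and Atp5l, subunit g of ATP synthase (chr9:44920743-44920992). The ERR element TCAAGGTCA, here as its reverse complement, stands in that of Atp5g3, 1 of the 3 genes for the c-ring subunit of ATP synthase (chr2:73911327-73911576).
Cycs: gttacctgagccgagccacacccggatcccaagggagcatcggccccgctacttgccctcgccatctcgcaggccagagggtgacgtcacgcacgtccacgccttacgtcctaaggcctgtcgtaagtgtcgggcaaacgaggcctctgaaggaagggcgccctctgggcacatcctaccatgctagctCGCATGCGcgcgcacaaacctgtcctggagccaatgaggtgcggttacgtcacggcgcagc
Cox6a1: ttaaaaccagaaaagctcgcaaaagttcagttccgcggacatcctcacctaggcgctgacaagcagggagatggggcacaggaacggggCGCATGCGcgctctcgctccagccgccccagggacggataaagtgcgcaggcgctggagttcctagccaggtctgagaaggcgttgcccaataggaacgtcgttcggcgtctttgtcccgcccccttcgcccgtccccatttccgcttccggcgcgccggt
Atp5l: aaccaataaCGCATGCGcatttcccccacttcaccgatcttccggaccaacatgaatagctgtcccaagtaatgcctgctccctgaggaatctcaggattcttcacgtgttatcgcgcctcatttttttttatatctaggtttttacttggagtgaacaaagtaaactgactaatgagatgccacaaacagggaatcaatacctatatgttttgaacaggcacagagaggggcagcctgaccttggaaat
Atp5g3: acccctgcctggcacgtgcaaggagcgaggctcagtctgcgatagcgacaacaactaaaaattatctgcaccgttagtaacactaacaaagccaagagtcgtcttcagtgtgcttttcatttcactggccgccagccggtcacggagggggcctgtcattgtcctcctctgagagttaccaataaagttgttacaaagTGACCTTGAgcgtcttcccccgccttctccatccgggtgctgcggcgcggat

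Searched on both strands of the 300-base windows, the NRF1 core was found in 10 of 70 members (14.3%) and in 2.07% of 27025 genes. The YY1 core AAGATGGC was likewise found in 10 members (14.3%), against 3.19% of all genes. The ETS core CCGGAAGT was found in 5 members (7.14%, against 4.31%), and the ERR element in 2, Atp5g3 and Sdhd (2.86%, against 0.466%). None of these 4 motifs contains another. Member windows had a median GC content of 58.3%, against 52.8% for all windows. A match is a run of letters and not a known site. Among members tested in chondrocyte-like cells, the 10 with the NRF1 core had a median log2 ratio of DMM to sham of 0.30, close to 0.32 for the 57 matched members without it. There the YY1 core had 0.31 for 10 members with it and 0.32 for 57 without, and the ETS core 0.44 for 5 and 0.32 for 62. The 2 genes with the ERR element had medians of 0.14 in superficial zone chondrocyte-like, -0.14 in chondrocyte-like, 0.01 in fibroblast-like, 0.12 in synovial lining-like, 0.03 in perivascular mural-like and -0.08 in erythroid-like cells. Those of the matched members without it were 0.36, 0.32, 0.48, 0.52, 0.26 and 0.33. Of the 4 motifs the ERR element had the widest difference in each of these populations, on 2 genes alone.

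The sham library held 106799078 UMIs (counted molecules) over 11362 cell barcodes and the DMM library 97346999 over 11076. After filtering, each held 9529 cells, with medians of 8064 UMIs per cell in sham and 7859 in DMM, and of 1.82% and 1.94% mitochondrial UMIs. The cells formed 26 clusters, of which 24 had at least 50 cells in each library, and 11 named populations were formed from them by marker genes. Names carry "-like" because they rest on markers alone, and 6 clusters stayed unnamed and are called by their leading gene. Prg4 (lubricin, of the joint surface) stood at 48196 and 71246 CPM (UMIs of a gene per 1000000 UMIs of the population) in the sham and DMM superficial zone chondrocyte-like cells and at 440 and 533 in chondrocyte-like cells, where Col2a1 (cartilage collagen) was at 25249 and 22325. Despite the gate against Ter119, 1547 sham and 893 DMM cells were erythroid-like. RNA from such cells was also counted in other populations: Hbb-bs, a beta-globin, stood at 2039 CPM in sham and 718 in DMM superficial zone chondrocyte-like cells, at 2767 and 187 in synovial lining-like cells and at 318 and 412 in chondrocyte-like cells. The libraries shared 24 cell barcodes.

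Nuclear-encoded subunits varied severalfold between clusters, and of the 11 named populations the erythroid-like and perivascular mural-like cells stood highest. Summed over the 86 nuclear members, levels ranged from 4931 to 24775 CPM over the 24 sham clusters, with a median of 8203, and from 5989 to 29683 over the DMM clusters, with a median of 10736. The erythroid-like cluster led by Car1, a carbonic anhydrase of early red cells, had the highest sham sum (24775 CPM), and the one led by Slfn14 had the lowest (4931). In DMM the highest sum (29683) belonged to the unnamed cluster led by Gm26917, in which histone genes also lead. Chondrocyte-like, hypertrophic chondrocyte-like and superficial zone chondrocyte-like cells lay close together at 7778, 8047 and 8223 CPM in sham and at 9700, 10307 and 10607 in DMM. Fibroblast-like cells were slightly lower in sham (7080 CPM), and mural-like cells, the contractile cells around vessels, stood at 14930 in sham and 18068 in DMM.

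The 13 mitochondrially encoded members summed to more than the 86 nuclear ones in every sham cluster except the Car1 erythroid-like one, and in every DMM cluster except that and the Gm26917 cluster. They ranged from 6520 to 45817 CPM over sham clusters (median 19683) and from 9107 to 45557 over DMM clusters (median 20931). The highest value in both libraries belonged to the mural-like cluster led by Myh11, the smooth muscle myosin, with 45817 and 45557 CPM. The lowest again belonged to the Slfn14 cluster. Mitochondrial transcripts per nuclear transcript of the chain therefore differed widely, from 0.968 to 3.14 over sham clusters and from 0.608 to 2.66 over DMM clusters. Across the 24 clusters the nuclear and mitochondrial sums had Spearman coefficients of 0.27 in sham and 0.23 in DMM and Pearson coefficients on the log scale of 0.61 and 0.41, given as descriptions since all clusters of a library share its preparation.

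**Figure D1:**
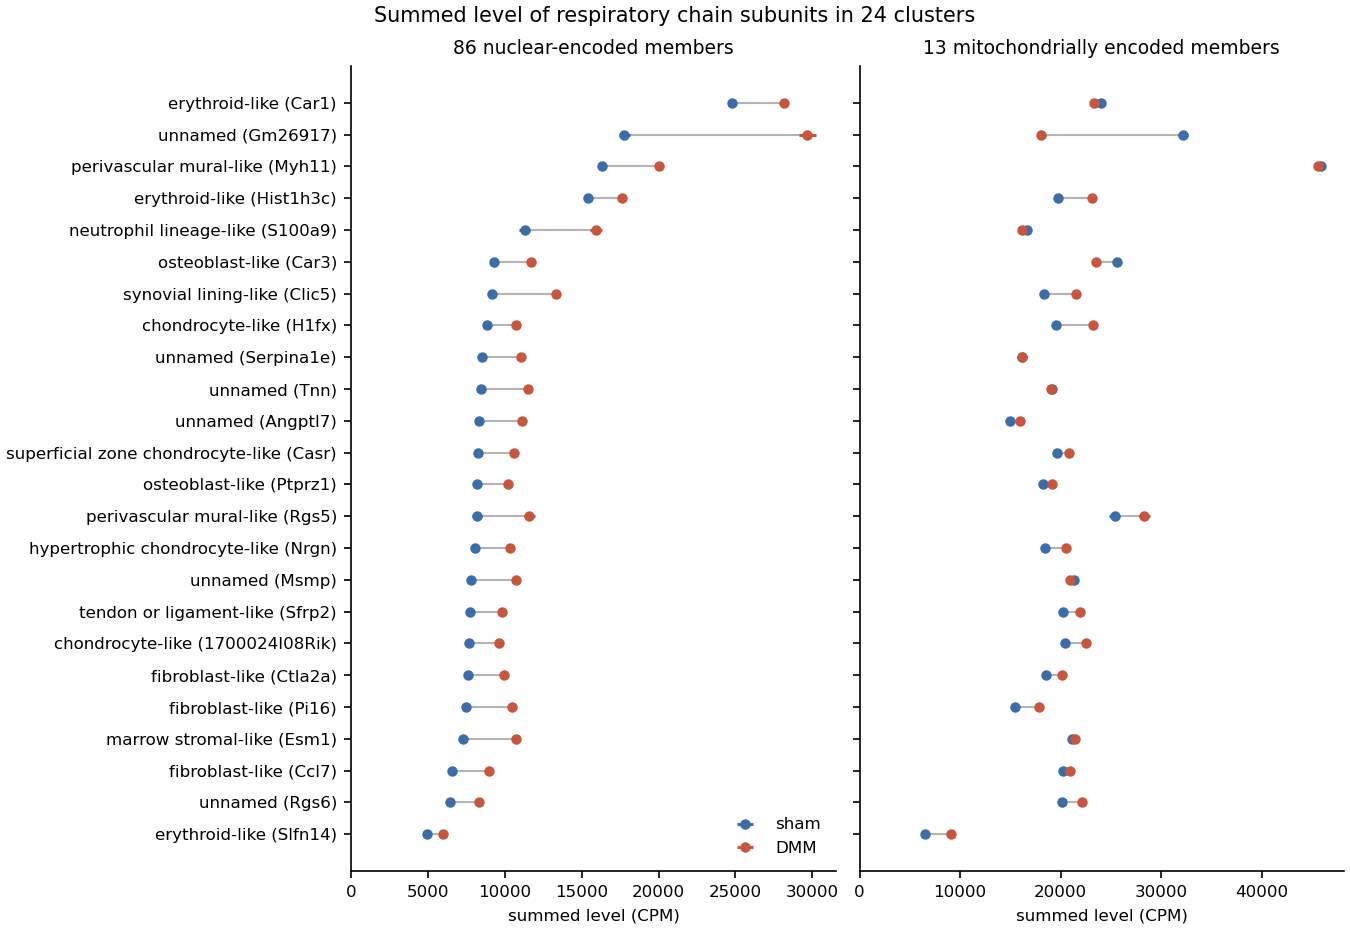
Summed level of the 86 nuclear-encoded members (left) and the 13 mitochondrially encoded members (right) in 24 clusters, in CPM, for sham (blue) and DMM (red); bars are exact 95% Poisson intervals and are mostly hidden by the points. Each cluster is named with its leading gene; the DMM point lies to the right of the sham point in all 24 clusters on the left and in 17 on the right.

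The large complexes took similar shares of the nuclear sum across clusters, whereas the small shares of complex II and Cycs varied more. Complex I took a median of 30.8% in sham and 31.0% in DMM, complex IV 27.5% and 28.5%, ATP synthase 29.7% and 28.7%, and complex III 9.23% and 9.43%. Complex II took 1.75% in sham, with a range over clusters of 0.890% to 2.59%, and 1.46% in DMM. Cycs alone took 1.16% and 1.14%, and its share was highest, at 2.84% and 2.79%, in superficial zone chondrocyte-like cells.

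Nuclear-encoded subunits stood higher in DMM in 24 of 24 clusters. The ratio of the summed levels ran from 1.14 to 1.67 with a median of 1.30, and all 24 intervals lay above 1. Superficial zone chondrocyte-like cells had sums of 8223 CPM (sham) and 10607 CPM (DMM), with a ratio of 1.29 [1.27, 1.31]. In chondrocyte-like cells they were 7778 and 9700, with a ratio of 1.247 [1.24, 1.26]. Larger ratios were found in 4 populations outside cartilage: 1.39 [1.38, 1.41] in fibroblast-like cells (7080 and 9868 CPM), 1.41 [1.36, 1.47] in neutrophil lineage-like cells (11278 and 15919), 1.45 [1.43, 1.47] in synovial lining-like cells (9166 and 13302) and 1.48 [1.44, 1.52] in marrow stromal-like cells (7245 and 10726). Mural-like and erythroid-like cells, which had the highest levels, had ratios of 1.21 [1.19, 1.23] and 1.24 [1.236, 1.248]. The make-up of some populations differed between the libraries. The Car1 cluster held 499 of 1547 sham and 420 of 893 DMM erythroid-like cells, and the ratios within the 3 erythroid-like clusters were 1.14, 1.15 and 1.21, all below that of their sum. The Ctla2a cluster held 115 of 1241 sham and 465 of 1208 DMM fibroblast-like cells, where the ratios within the 3 clusters were 1.31, 1.37 and 1.404. The unnamed cluster led by Gm26917, with a median of only 1983 UMIs per sham cell and 3374 per DMM cell, had the largest ratio (1.67) and the smallest mitochondrial ratio (0.562). Hbb-bs stood lower in DMM in most populations, and whether free RNA had a part in these ratios was not tested.

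The mitochondrially encoded sum differed less and in both directions. It was higher in DMM in 17 of 24 clusters, with 15 intervals above 1 and 4 below, and the median ratio was 1.06. It was 18329 and 21470 CPM in synovial lining-like cells (ratio 1.17 [1.16, 1.18]) and 20327 and 22556 in chondrocyte-like cells (1.11 [1.10, 1.11]). In osteoblast-like cells it was lower, 21365 CPM in sham and 19863 in DMM (0.930 [0.922, 0.938]), and in mural-like cells it was nearly level, 42376 and 41529 (0.980 [0.970, 0.990]). On the log2 scale the osteoblast-like sum differed by -0.11, close to the median of all genes tested there (-0.12). The 2 osteoblast-like clusters were mixed unequally: the one led by Car3, Dmp1 and Cdh2 held 161 of 587 sham and 82 of 937 DMM cells. Within that cluster the mitochondrial ratio was 0.917, and within the other, led by Ptprz1, it was 1.05.

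Gene by gene, most nuclear members were higher in DMM while most other genes were lower. A member counts as past the fold when its CPM in one library was at least 25% above that in the other and the interval of the ratio excluded 1. Genes were tested when they had at least 50 UMIs over both libraries of a population. In superficial zone chondrocyte-like cells 47 of 80 tested nuclear members were past the fold upwards and 0 downwards, against 8.8% of all 9395 genes upwards and 28.9% downwards. In chondrocyte-like cells the counts were 38 and 1 of 81, against 6.2% and 25.8% of all genes. Fibroblast-like cells had 60 and 0 of 81, against 16.1% and 21.3%, and synovial lining-like cells 64 and 2 of 80, against 13.5% and 24.6%. Mural-like cells had 32 and 0 of 80, against 11.8% and 16.7%, and erythroid-like cells 37 and 0 of 81, against 8.05% and 23.4%. With the erythroid-like clusters weighted equally the upward count was 22 and the median log2 ratio 0.20, with no share of all genes given for that setting. The median log2 ratio of the nuclear members was 0.34, 0.31, 0.48, 0.49, 0.23 and 0.32 in these 6 populations in turn, and that of all genes tested was -0.18, -0.16, -0.05, -0.10, -0.05 and -0.12. Of the 80 nuclear members tested in all 6, 69 had a ratio above 1 in every one. The share of all genes that did so is not given here. The 6 populations come from the same 2 libraries and are not independent repeats. The 6 nuclear members that missed the minimum in superficial zone chondrocyte-like cells were Cox6a2, Cox6b2, Cox7a1, Cox7b2, Cox8b and Cox8c, all paralogues of complex IV subunits.

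**Figure D2:**
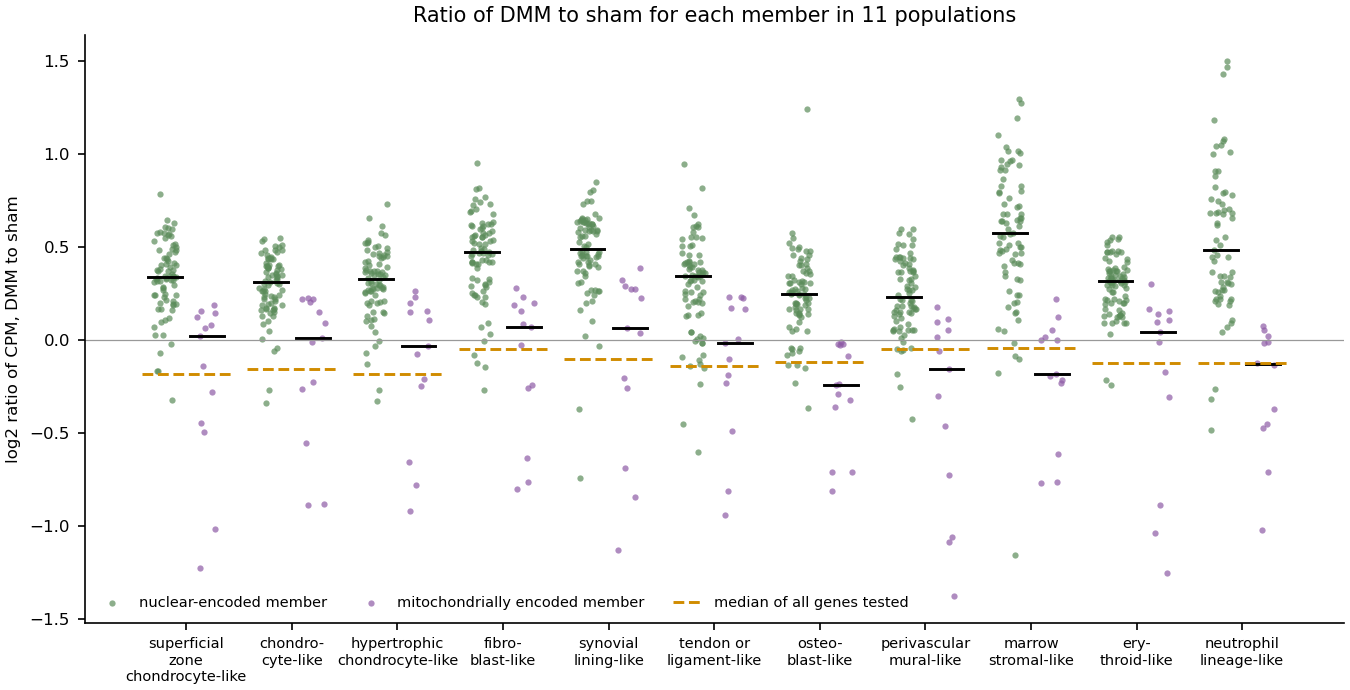
Log2 ratio of CPM in DMM to CPM in sham for each tested member in 11 populations; green points are nuclear-encoded and purple points mitochondrially encoded members, black bars are their medians, and orange dashes mark the median of all genes tested in the population. The nuclear medians lie above 0 in all 11 populations (0.34 in superficial zone chondrocyte-like cells), and the purple points reach from -1.38 to 0.39.

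Complex I, which oxidises NADH, supplied 22 of the 47 members past the fold in superficial zone chondrocyte-like cells, of 36 tested, with a median log2 ratio of 0.36. Ndufa12, an accessory subunit, had the largest ratio of all tested nuclear members there, with 44.1 sham and 76.1 DMM CPM (log2 ratio 0.79). It also had the largest in chondrocyte-like cells, with 50.1 and 73.5 (0.55). Ndufb2, Ndufa13, Ndufa11 and Ndufa2, accessory subunits of complex I, were past the fold upwards in all 11 named populations. Ndufa11 stood at 99.7 and 151 CPM in superficial zone chondrocyte-like cells, and Ndufa13 at 134 and 180. Ndufs1, the largest core subunit, which carries iron-sulphur clusters, went the other way: 33.5 and 29.9 CPM in superficial zone chondrocyte-like cells (log2 ratio -0.16), 19.3 and 16.03 in chondrocyte-like cells (-0.27) and 42.9 and 33.2 in synovial lining-like cells (-0.37). It had the lowest ratio of the complex I members in each of the 6 populations, and it was past the fold downwards in 3 of the 10 populations where it was tested. In superficial zone chondrocyte-like cells its difference was near the median of all genes (-0.18). Ndufs4, an accessory subunit known from Leigh syndrome, was past the fold in none of 11 populations, with 48.4 and 49.3 CPM in superficial zone chondrocyte-like cells.

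Complex II, which links the chain to the citric acid cycle, was the complex with the smallest differences. In superficial zone chondrocyte-like cells none of its 4 genes was past the fold, and their median log2 ratio was -0.05. Sdha, the flavoprotein, had 59.2 CPM (sham) and 47.4 CPM (DMM), a log2 ratio of -0.32. Sdhb, the iron-sulphur subunit, stood at 37.2 and 33.2, and the membrane anchors Sdhc and Sdhd at 21.3 and 22.8 and at 20.8 and 21.8. In chondrocyte-like cells Sdhd was past the fold downwards, with 21.9 and 17.3 CPM (-0.34), a call lost in 9 alternative settings, and the median of the 4 genes was -0.05. Fibroblast-like cells had Sdhb (29.4 and 39.4 CPM) and Sdhc (32.8 and 44.8) past the fold upwards, and in mural-like cells the complex II median was -0.11. Sdhd had a ratio above 1 in 1 of the 9 populations where it was tested. Against the median of all genes tested (-0.18), the complex II median in superficial zone chondrocyte-like cells was still the higher value.

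Complex III, which passes electrons from ubiquinol to cytochrome c, had 6 of 9 nuclear members past the fold in superficial zone chondrocyte-like cells and a median log2 ratio of 0.36. Uqcr10 (73.6 and 112 CPM), Uqcrq (93.9 and 137) and Uqcr11 (79.5 and 108), all small accessory subunits, had log2 ratios of 0.61, 0.55 and 0.44. The Rieske iron-sulphur subunit Uqcrfs1 differed less, at 60.9 and 66.2 CPM (0.12), and Cyc1, cytochrome c1, stood at 34.3 and 42.2 (0.30). Cycs, the mobile carrier whose promoter is printed above, stood at 233 and 296 CPM in superficial zone chondrocyte-like cells (0.34), past the fold, and at 136 and 159 in chondrocyte-like cells (0.22), short of it.

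Complex IV, the oxidase, had 9 of 13 tested nuclear members past the fold in superficial zone chondrocyte-like cells (median log2 ratio 0.34) and 12 of 13 in synovial lining-like cells (0.59). Cox8a, Cox7b, Cox7a2 and Cox4i1 were past the fold upwards in all 11 populations. In superficial zone chondrocyte-like cells Cox8a had 258 sham and 404 DMM CPM (0.65), and it stood at 331 and 598 in synovial lining-like cells (0.85) and at 794 and 1041 in mural-like cells (0.39). Cox7c, another small subunit, differed less, with 222 and 250 CPM in superficial zone chondrocyte-like cells (0.17). Cox6a1, shown above with its NRF1 core, stood at 96.1 and 120 there (0.33) and at 82.0 and 104 in chondrocyte-like cells (0.34).

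ATP synthase had 9 of 17 nuclear members past the fold in superficial zone chondrocyte-like cells, a median log2 ratio of 0.38, and 15 of 17 in synovial lining-like cells (0.56). All 17 ratios were above 1 in both. Atp5l, also shown above, was past the fold upwards in all 11 populations, with 232 and 332 CPM in superficial zone chondrocyte-like cells (0.52) and 302 and 470 in synovial lining-like cells (0.64). Atp5j2 of the membrane part (101 and 152) and Atp5e of the central stalk (134 and 183) were each past the fold in 10 of 11 populations. The catalytic subunits Atp5a1 (224 and 241 CPM) and Atp5b (214 and 247) differed less, with log2 ratios of 0.11 and 0.21. Atp5g3, shown with its ERR element, was past the fold in none of 11 populations and stood at 125 and 145 CPM in superficial zone chondrocyte-like cells and at 124 and 129 in chondrocyte-like cells.

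The 13 mitochondrially encoded members split by gene, in nearly the same way in every population. The genome is transcribed as long precursors from both strands and cut into single messages, and mt-Nd6 is the only one of the 13 on the light strand. mt-Nd6 was lower in DMM in all 23 clusters where it was tested and past the fold in 22. Superficial zone chondrocyte-like cells had 130 sham and 55.5 DMM CPM of it (log2 ratio -1.23), and it stood at 113 and 60.9 in chondrocyte-like cells (-0.89) and at 140 and 53.9 in mural-like cells (-1.38). mt-Atp8, a small ATP synthase subunit, was lower in 24 of 24 clusters and past the fold in 22, with 73.3 and 36.3 CPM in superficial zone chondrocyte-like cells (-1.01). mt-Nd4l, a small complex I subunit, was lower in 24 of 24 and past the fold in 20, with 139 and 98.9 CPM there (-0.49). mt-Nd2 and mt-Nd5 were lower in 22 of 24 clusters each, at 716 and 525 CPM and at 422 and 348 in superficial zone chondrocyte-like cells.

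Among the other mitochondrial messages, mt-Nd1, mt-Atp6, mt-Cytb and the mt-Co genes stood slightly higher in DMM in most clusters, and mt-Nd3 and mt-Nd4 did not. In osteoblast-like cells, whose clusters were mixed unequally, 0 of 13 had a ratio above 1. mt-Co1, mt-Co2 and mt-Co3, the catalytic core of complex IV, were higher in 20, 22 and 20 of 24 clusters, and mt-Atp6 and mt-Nd1 in 21 each. In superficial zone chondrocyte-like cells mt-Co1 stood at 3099 and 3533 CPM (log2 ratio 0.19), mt-Co2 at 2716 and 3033 (0.16) and mt-Atp6 at 4800 and 5242 (0.13). mt-Cytb, the only mitochondrial gene of complex III, was at 1967 and 2059 (0.07), and mt-Nd4 at 1253 and 1137 (-0.14). mt-Nd4 was lower in 18 of 24 clusters and mt-Nd3, at 185 and 187 CPM in these cells, in 12 of 23. Of the 13, 4 were past the fold downwards and 0 upwards in these cells, and 3 and 0 in chondrocyte-like cells, shares near the 28.9% and 25.8% of all genes lower there. In synovial lining-like cells mt-Atp6 (4790 and 5995 CPM) and mt-Co2 (2068 and 2705) were past the fold upwards and 3 genes downwards, again near the background of 13.5% and 24.6%. Several of these genes overlap in the annotation of the mitochondrial genome (GRCm38): mt-Atp8 (7766 to 7969 on chrM) runs into mt-Atp6, which touches mt-Co3, mt-Nd4l (9877 to 10173) runs into mt-Nd4, and mt-Nd6 (13552 to 14070) overlaps the end of mt-Nd5 on the other strand. mt-Nd2, lower in 22 of 24 clusters, has no overlap with another gene there, while mt-Atp6 and mt-Co3, higher in most clusters, do. How reads in such overlaps were counted is not given in the sources used here, and its part in the split was not tested.

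**Figure D3:**
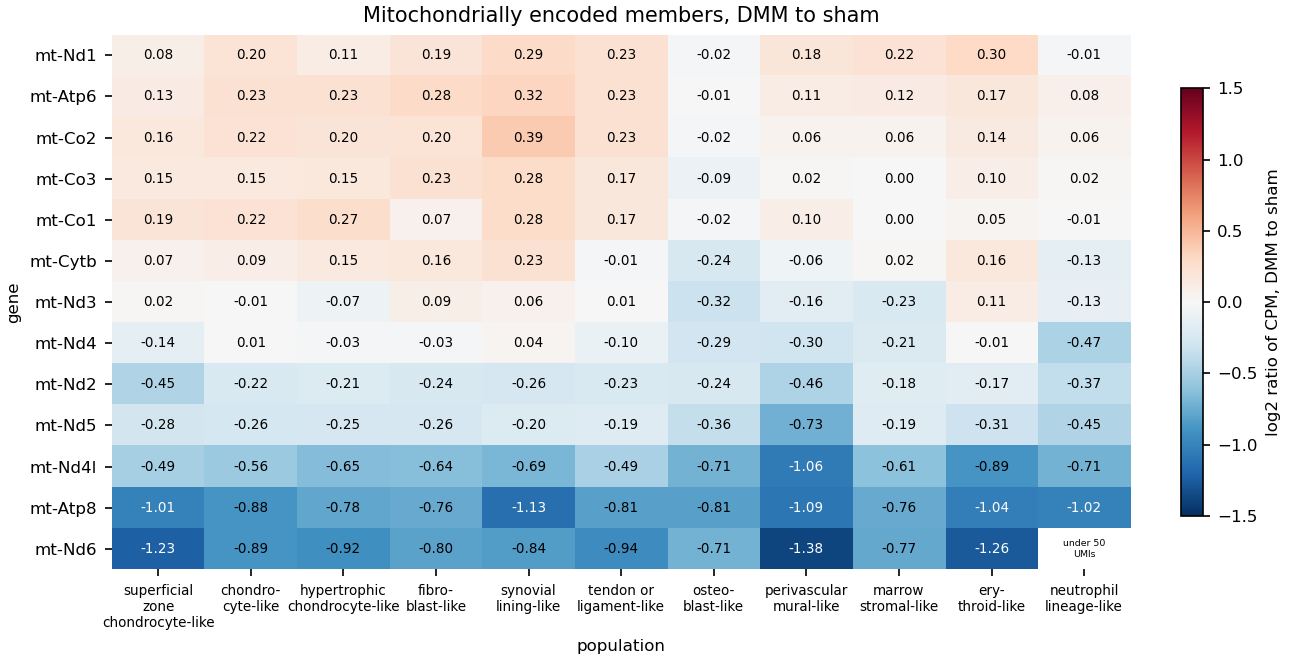
Log2 ratio of CPM in DMM to CPM in sham for the 13 mitochondrially encoded members (rows) in 11 populations (columns); red is higher and blue lower in DMM, each cell prints its value, and 1 cell had under 50 UMIs. mt-Nd6, mt-Atp8 and mt-Nd4l are blue in every column with a value, from -0.49 to -1.38, and mt-Nd1, mt-Atp6 and the mt-Co genes are pale red in most.

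The length of a gene on the chromosome moved with the ratio. Across 9381 genes of superficial zone chondrocyte-like cells the log2 ratio of DMM to sham fell with genomic span (Spearman -0.51), and the coefficient was -0.47 in chondrocyte-like, -0.44 in fibroblast-like, -0.49 in synovial lining-like, -0.48 in mural-like and -0.40 in erythroid-like cells. These are descriptions across genes of 1 pair of libraries, and genes are not replicates. The nuclear members are short genes, with a median span of 7196.5 bp against 25262 bp for all genes tested in chondrocyte-like cells. Among genes under 5 kb in superficial zone chondrocyte-like cells, 25 members had a median log2 ratio of 0.36, against 0.26 for 888 other genes, and 72% of the members were past the fold upwards, against 34.0%. Between 5 and 10 kb, 30 members had 0.38, against 0.11 for 1077 other genes. In synovial lining-like cells the members under 5 kb had 0.50, against 0.30. Mural-like cells differed: members under 5 kb had 0.27, against 0.34 for other genes, and between 5 and 10 kb the values were 0.23 and 0.22. In osteoblast-like cells, too, members under 5 kb (0.257) stood no higher than other genes (0.268), while between 5 and 10 kb they had 0.26 against 0.13.

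With the trend on span removed, fewer nuclear members were past the fold upwards: 11 in superficial zone chondrocyte-like, 10 in chondrocyte-like, 34 in fibroblast-like, 37 in synovial lining-like, 3 in mural-like and 10 in erythroid-like cells. The medians then stood at 0.13, 0.14, 0.30, 0.29, 0.02 and 0.19. The share of all genes past the fold after this step is not given here, so the counts have no background beside them. Among the long members, Ndufs1 (33238 bp) and Ndufs4 had small or negative ratios. Ndufa10 (34851 bp) and Ndufa12 (22724 bp) are long too. They stood higher in DMM in superficial zone chondrocyte-like cells, at 32.1 and 40.6 CPM and at 44.1 and 76.1 CPM. Ndufs4 is the only tested member over 100 kb, and classes of span above 10 kb hold fewer than 20 members each. What lay behind the trend on span was not tested, and its part in the members' ratios cannot be told apart from the surgery, since each group was 1 library.

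**Figure D4:**
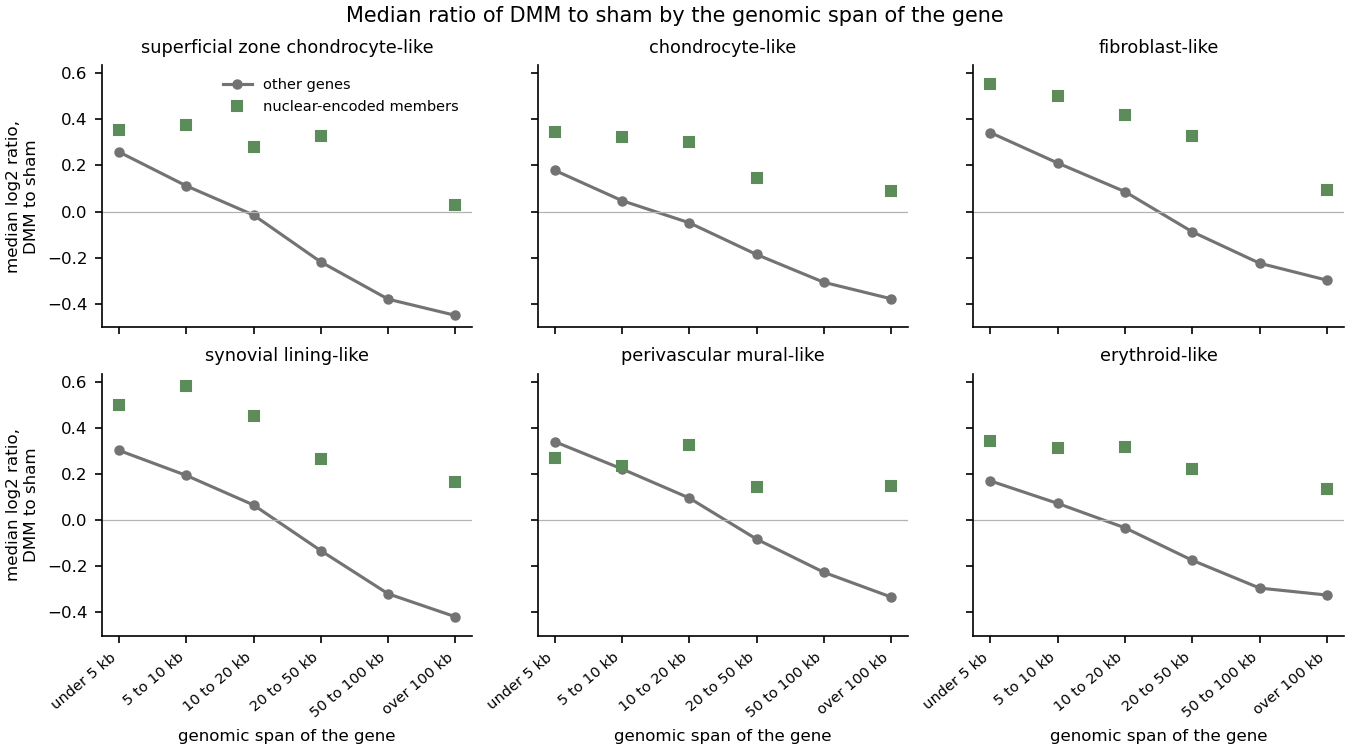
Median log2 ratio of DMM to sham by genomic span of the gene in 6 populations; grey points are all other tested genes and green squares the nuclear-encoded members in the same span class (the class over 100 kb holds 1 member). The grey line falls from left to right in all 6 panels, and the squares lie above it in every class except that under 5 kb in perivascular mural-like cells.

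Several subunits exist as paralogues with tissue-restricted use, and Cox4i2 stood far higher in the chondrocyte-like populations than in fibroblast-like cells, with other populations between them. Cox4i2 replaces the common Cox4i1 in complex IV and is known for its expression in lung and its induction by low oxygen. As a share of the UMIs of both genes it was highest in the unnamed cluster led by Msmp, at 54.6% [52.8, 56.4] in sham and 58.3% [56.8, 59.8] in DMM. It took 33.4% [31.9, 34.9] and 30.5% [29.0, 32.0] in hypertrophic chondrocyte-like cells, 29.6% [28.6, 30.6] and 26.1% [25.1, 27.1] in chondrocyte-like cells and 25.8% [24.1, 27.5] and 20.9% [19.2, 22.6] in superficial zone chondrocyte-like cells. Mural-like cells had 19.7% and 18.5%. Values between these and those of fibroblast-like cells stood in the unnamed clusters led by Tnn (17.0% and 17.0%) and Angptl7 (12.3% and 7.57%). Marrow stromal-like cells had 6.85% and 9.80%, and osteoblast-like cells 4.97% and 8.73%. In fibroblast-like cells Cox4i2 took 1.28% [0.918, 1.73] and 0.809% [0.567, 1.12], and in erythroid-like cells 0.229% and 0.195%. Neutrophil lineage-like cells had 6.01% and 10.0%, on 11 and 30 UMIs of Cox4i2, so no single value stands for the background. In CPM, Cox4i2 stood at 129 and 144 in chondrocyte-like and at 115 and 113 in superficial zone chondrocyte-like cells, where Cox4i1 stood at 332 and 430. Ndufa4l2, left out by the rule, is a low-oxygen relative of Ndufa4 and stood at 891 and 1942 CPM in the Msmp cluster, 1036 and 1704 in superficial zone chondrocyte-like cells and 63.1 and 97.0 in chondrocyte-like cells.

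Other paralogues were rare outside a single lineage or cluster. Cox6b2, the testis form of subunit 6b, stood at 154 CPM in sham and 191 in DMM erythroid-like cells, against 388 and 491 for the common Cox6b1, at 136 and 319 in the Gm26917 cluster, and at most at 10.2 and 14.6 in fibroblast-like, lining-like, mural-like, chondrocyte-like and superficial zone chondrocyte-like cells. Cox6a2, the heart and muscle form, stood at 33.3 and 16.7 CPM in the neutrophil lineage-like cells, on 25 UMIs in all clusters together. Cox7a1, another muscle form, was highest in the Myh11 mural-like cluster with 7.62 and 4.96 CPM. Cox8c was highest in the Rgs6 cluster (2.87 and 9.45) and Cox8b in the fibroblast-like cluster led by Ctla2a (2.98 and 2.50), and Cox7b2 had 20 UMIs in all. The genes Atp5g1, Atp5g2 and Atp5g3 encode the same mature c-ring protein. Atp5g2 took the largest part of their UMIs in the main chondrocyte-like cluster (276 and 312 CPM, against 128 and 159 for Atp5g1 and 121 and 126 for Atp5g3), Atp5g1 in the Car1 erythroid-like cluster (745 and 826) and Atp5g3 in the Myh11 mural-like cluster (338 and 368).

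**Figure D5:**
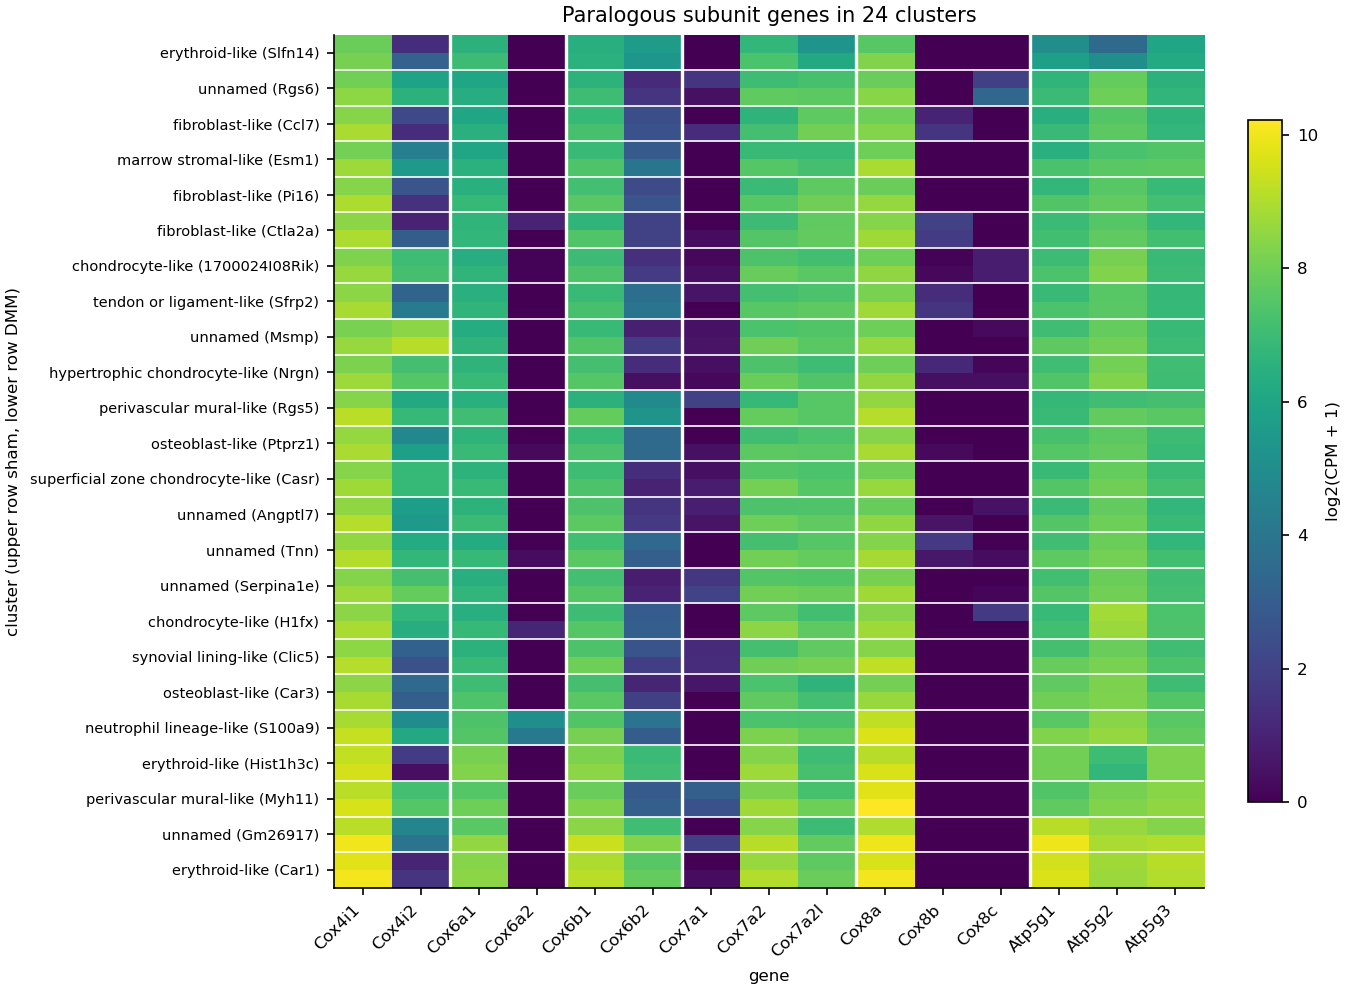
Level of paralogous subunit genes, as log2(CPM + 1) in colour, in 24 clusters (for each cluster the upper row is sham and the lower row DMM); vertical white lines separate the gene families. Cox4i2 is bright in the chondrocyte-like clusters and the Msmp cluster and dark in the fibroblast-like and erythroid-like ones, and Cox6b2 is bright in the erythroid-like clusters.

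Mural-like cells stood above fibroblast-like cells in nearly every member, in a comparison within each library that was chosen with their levels known. A gene counts here when it differed at least 1.5-fold in the same direction in both libraries, with both intervals excluding 1. All 13 mitochondrial members and 66 of 81 nuclear members were higher in mural-like cells and 0 were lower, against 15.7% of 9810 genes higher and 18.8% lower. The median log2 ratio of the nuclear members was 1.09 in sham and 0.89 in DMM, against -0.03 and -0.04 for all genes. All 9 nuclear genes of complex III were among the higher ones, 31 of 36 of complex I, 3 of 4 of complex II, 11 of 14 of complex IV and 11 of 17 of ATP synthase. Cox4i2 differed most, at 132 CPM against 4.26 in sham, a ratio of 30.9 [22.2, 44.0], and at 165 against 4.03 in DMM. Sdhc stood at 126 against 32.8 CPM in sham and at 111 against 44.8 in DMM. Cycs stood at 228 against 63.7 and at 264 against 89.6. Cox4i1, Cox7c, Sdhd, Ndufs4 and Ndufv3 were among the members short of the rule.

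The 2 mural-like clusters stood apart in this comparison. The Myh11 cluster alone had 69 of 80 nuclear members higher and 0 lower, against 16% of all genes higher and 21.1% lower. The Rgs5 cluster alone, with 70 sham and 72 DMM cells, had 5 of 81 higher and 1 lower, against 8.33% and 6.92% of all genes. Their summed nuclear levels were 2.30 and 1.16 times those of fibroblast-like cells in sham, and 2.03 and 1.17 times in DMM. For the mitochondrial sum the Rgs5 cluster had ratios of 1.43 and 1.45. The difference between the 2 clusters themselves was not tested. In the same comparison 11 of 16 genes of the citric acid cycle were higher and 0 lower, and of 88 cytosolic ribosomal genes 0 were higher and 15 lower.

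Superficial zone chondrocyte-like and chondrocyte-like cells differed in few members. Cycs stood at 233 against 136 CPM in sham, a ratio of 1.72 [1.605, 1.832], and at 296 against 159 in DMM (1.87 [1.74, 2.00]). Uqcrfs1 stood at 60.9 against 32.7 and at 66.2 against 38.6, Atp5j, a stalk subunit of ATP synthase, at 210 against 129 and at 289 against 155, and Ndufs1, Ndufb7 and Ndufv1 were likewise higher. Ndufa8 was lower, at 84.8 against 138 CPM in sham and at 103 against 155 in DMM. These 6 higher and 1 lower of 80 nuclear members compare with 21.8% of 10789 genes higher and 20.7% lower, so the members stood below the background in both directions, and 0 of 13 mitochondrial members counted. The Ndufa8 call was lost in 7 alternative settings. Between hypertrophic chondrocyte-like and chondrocyte-like cells 0 of 80 nuclear members counted in either direction, against 4.74% and 9.99% of 10971 genes.

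Other mitochondrial genes, from lists drawn up by function, moved less evenly. Their counts stand beside the 8.8% of all genes higher and 28.9% lower in superficial zone chondrocyte-like cells. In these cells 13 of 41 assembly factors of the chain were past the fold upwards and 4 downwards (median log2 ratio 0.16), among them Higd1a, a factor of complex IV, with 494 sham and 841 DMM CPM. The citric acid cycle, with 2 upwards and 3 downwards of 16 (0.04), was near that background, with fumarase Fh1 at 14.1 and 9.01 and citrate synthase Cs at 23.2 and 16.1. Protein import and inner membrane carriers had 9 and 0 of 34 (0.25), and the mitochondrial ribosome 30 and 1 of 76 (0.25). Genes for mitochondrial gene expression and biogenesis had 1 and 7 of 15 (-0.26). The median spans of the tested genes were 10917, 24379.5, 9702, 7899.5 and 26121 bp for these lists in turn. In these cells other genes of 5 to 10 kb had a median log2 ratio of 0.11, those of 10 to 20 kb -0.02 and those of 20 to 50 kb -0.22. The part of span in the list values was not tested. Lrpprc, which stabilises mitochondrial messages, stood at 14.6 and 8.30 CPM, and its partner Slirp at 27.1 and 44.6. Gabpa, an ETS factor of subunit promoters, stood at 32.4 and 19.2, Nrf1 at 66.6 and 58.4 and Tfam, the packaging factor of mitochondrial DNA, at 15.4 and 14.5, with Nrf1 and Tfam short of the fold.

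Lists outside the mitochondrion moved upwards too, but that of glycolysis and hypoxia did so unevenly between populations. In the same cells 14 of 21 glycolysis and hypoxia genes were past the fold upwards and 1 downwards (median 0.48), 74 and 3 of 89 cytosolic ribosomal genes (0.45) and 6 and 0 of 14 proteasome genes (0.30). Their median spans were 18684, 3568 and 16620 bp. Other genes under 5 kb had a median log2 ratio of 0.26 there, and those of 10 to 20 kb -0.02. In chondrocyte-like cells, where 6.2% of all genes were higher and 25.8% lower, the glycolysis and hypoxia list had 4 and 3 of 22 (0.06), the cytosolic ribosome 78 and 5 of 92 (0.50) and the citric acid cycle 0 and 1 of 16 (-0.08). In synovial lining-like cells, where 13.5% of all genes were higher and 24.6% lower, the list of mitochondrial gene expression and biogenesis had 2 and 5 of 18 (-0.16). Gabpb1, the partner of Gabpa, stood there at 25.2 and 14.9 CPM. Ppargc1a, the PGC-1 alpha coactivator of mitochondrial genes, stood at 5.09 and 11.9 CPM, a ratio of 2.35 [1.44, 4.04]. Import and carrier genes had 21 and 0 of 34 (0.40). The ribosomal list, drawn by the prefixes Rpl and Rps, also holds a few Rps6k kinases, which were its lowest genes.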

How the data were processed

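The deposited files hold raw UMI counts per gene and cell barcode for 2 libraries, from droplet sequencing of transcript 3' ends. The counting program was Cell Ranger, version 7.1.0 per the file headers; the submitters' processing notes list it as 3.0.1, beside Seurat, STAR, HTSeq, DESeq2 and the build mm10, with no roles. Whether counting used strand is not given in the sources used here. Of the 86 nuclear members, 26 overlap an exon of a gene on the other strand and 0 on the same strand. A bulk table of 6 columns that match no sample was not used.

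Cells with under 500 genes, over 10% mitochondrial UMIs or a Scrublet doublet call (463 sham, 360 DMM) were removed. The remaining cells, each normalised to a total of 10000, were clustered over both libraries (scanpy 1.11.5, Python 3.11.15; 2000 variable genes without members or mitochondrial genes, 30 components, 15 neighbours, Leiden resolution 1, seed 1). Clusters were named from 20 marker lists, with at least 3 detected markers, a score of 0.75 and a gap of 0.25 set after seeing the data; 6 stayed unnamed. UMIs were summed per library and population and given as CPM. A level is a share of molecules and was not scaled by gene length. Intervals are exact Poisson for levels, exact conditional binomial for ratios and exact binomial (Clopper-Pearson) for shares, all at 95% (scipy 1.17.1), and cover counting error only. Genes needed 50 UMIs in a population. The calling step was checked on simulated Poisson counts, which hold no spread between mice or preparations, so the check bears on counting error alone.

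The members, gene lists and comparisons were chosen with earlier results of these data known. Genes named are the mitochondrial members, the paralogue sets, the Sdh genes, Cyc1 and Cycs, the most abundant per complex, the 10 highest and 10 lowest ratios in both chondrocyte populations and the 10 that differ most between populations. Members past the fold in all or none of the populations, and those leading a comparison of populations, were named after their values were seen. Gene positions and spans come from GENCODE vM21 on GRCm38, which placed 99.8% of features. Alternatives covered the cell filters, doublets, resolution, scaling, thinning to 2000 UMIs (leaving out 399 sham and 376 DMM cells), UMI minimum and gene span.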

Additional observations from a re-analysis of the deposited data

Results flagged for a closer look

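Cox4i2 differed in opposite directions in 2 populations. Its log2 ratio of DMM to sham was -0.7442 in synovial lining-like cells, where it stood at 8.03 CPM in sham (30 UMIs) and 4.80 in DMM (47 UMIs), and 0.3298 in perivascular mural-like cells, where it stood at 132 and 165 CPM. Both intervals excluded a ratio of 1, and the difference between the populations was not tested. Larger rises stood elsewhere, some on few UMIs. Osteoblast-like cells, whose 2 clusters were mixed unequally, had 19.5 and 46.3 CPM (85 and 300 UMIs). Marrow stromal-like cells had 19.8 and 45.3 CPM (28 and 34 UMIs), and tendon or ligament-like cells 8.84 and 17.1 (18 and 52 UMIs). Of the 15 clusters where Cox4i2 was tested, it was past the fold upwards in 8 and downwards in 2.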

How the results depend on the processing

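No paired analysis was possible because each group has 1 library. Nuclear medians kept their sign under each setting run. Median-of-ratios scaling set them to 0.5225 (superficial zone chondrocyte-like), 0.4701 (chondrocyte-like), 0.5878 (synovial lining-like) and 0.4384 (erythroid-like), with 66 chondrocyte-like and 62 erythroid-like members higher, and the mitochondrial medians to 0.2028 (superficial zone) and 0.1674 (erythroid-like). Removing the trend on span gave 0.1334, 0.1444, 0.3028, 0.2899, 0.02071 and 0.1896 in the order of the 6 populations in the report, with 11, 10, 34, 37, 3 and 10 higher. The share of all genes higher is not given for this setting, for median-of-ratios scaling or for equal weighting of clusters, so these counts have no background beside them. Weighting clusters equally gave 0.1987, 22 higher and a mitochondrial median of 0.1766 in erythroid-like cells and a nuclear median of 0.3481 in mural-like cells, and thinning gave 0.3782 in erythroid-like cells. Mitochondrial medians lie near 0 and changed sign in 6 cases: -0.02665 and -0.03337 after thinning (superficial zone, lining-like), -0.0126, -0.0002182 and -0.0009127 in chondrocyte-like cells (at most 5% mitochondrial UMIs, doublets kept, resolution 0.5) and -0.0022 in erythroid-like cells (at least 1000 genes). Counts of lower nuclear members stayed between 0 and 3: chondrocyte-like 0 in 9 settings, 3 with doublets kept and 2 with clusters equal, lining-like 0 or 1 in 8, mural-like 3 without the span trend, 1 in 4 and 2 with clusters equal, and 1 in 6 settings for superficial zone, 4 for fibroblast-like and 3 for erythroid-like cells. Superficial zone against chondrocyte-like cells had 0 lower in 7 settings, and hypertrophic against chondrocyte-like cells 1 lower with doublets kept.

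The mural-like to fibroblast-like ratio of the nuclear sum (sham, then DMM) was 2.163 and 1.873 over nuclear genes only, 2.04 and 1.724 with at least 1000 genes, 1.895 and 1.641 with at most 5% mitochondrial UMIs, 1.946 and 1.677 with doublets kept and 2.063 and 1.883 after thinning, and in sham 2.062 at 20% and 2.051 with no limit. The mitochondrial ratio was 2.343 and 2.101, 2.075 and 1.809, 2.105 and 1.879, and 2.336 and 2.078 for the last 4 paired settings in turn, 2.47 and 2.164 at 20%, 2.474 and 2.217 with no limit and 2.062 in DMM at resolution 1.5. With the Myh11 cluster alone the ratios were 2.302 and 2.031 (nuclear) and 2.579 and 2.328 (mitochondrial), and with the Rgs5 cluster alone 1.155 and 1.174, and 1.427 and 1.447, with 5 members higher and 1 lower; these splits were chosen after seeing the data. The causes were not tested.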
